A study of Mus musculus with 16 samples.

Results

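The interferon-induced GTPases described here are 10 mouse genes: the immunity-related GTPases Irgm1, Irgm2 and Igtp, the guanylate-binding proteins Gbp2, Gbp3, Gbp5, Gbp6 and Gbp7, and the dynamin-like Mx1 and Mx2. Each was looked for by its symbol among the transcript clusters of a mouse gene array that carry 1 gene symbol, a transcript cluster being the set of probes read as 1 transcript. Of the 10 genes, 6 had such a cluster (Irgm1, Gbp3, Gbp5, Gbp7, Mx1 and Mx2, with 1 cluster each), out of 19938 genes measured in this way. The other 4 genes appeared only in 3 clusters whose probes are assigned to several symbols: Irgm2 with Igtp, Gbp2 with Gbp2b, and Gbp6 with 5 other guanylate-binding proteins. Values of those 3 clusters are given separately and belong to no single gene.

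RNA came from a pair of tissues of each mouse. The neurosensory retina (NSR) holds rods, cones, the neurons they feed and their glia, and the retinal pigment epithelium (RPE), isolated from it, is the epithelial sheet that supports the photoreceptors. All 8 mice were male Balb/cJ, an albino inbred strain, aged 10 weeks, and the labels name no genetic change. Light-exposed mice (n = 4) spent 18 hours under cool white fluorescent lamps at 10000 lux, and their tissues were taken 4 hours later. Control mice (n = 4) were kept on a 12-hour cycle of light and dark. Each mouse gave 1 NSR and 1 RPE sample, so that 16 arrays formed 4 groups of 4. The study was set up to measure how this photic injury changes gene expression in each tissue. Bright light and the change of light schedule cannot be told apart in any comparison of light with control.

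Interferons are secreted proteins that bind cell-surface receptors and activate Janus kinases, which in turn activate STAT transcription factors. Type I interferons act on the interferon-stimulated response element (ISRE), and interferon gamma acts on the gamma-activated site (GAS). The immunity-related GTPases and guanylate-binding proteins are among the strongest targets of interferon gamma. They gather on the vacuoles of intracellular parasites and bacteria, disrupt them, and feed into inflammasome and autophagy pathways. Mx proteins answer mainly to type I and type III interferons and block virus replication, and many inbred laboratory mouse strains carry inactive Mx genes. In the retina, such genes serve as markers of an interferon response in glia, microglia, neurons and pigment epithelium.

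The RefSeq annotation of GRCm38.p6 places Irgm1, Irgm2 and Igtp on chromosome 11, Gbp2, Gbp3, Gbp5 and Gbp7 on chromosome 3, Gbp6 on chromosome 5, and Mx1 and Mx2 on chromosome 16. It lists Mx1 and Mx2 as transcribed pseudogenes and the other 8 as protein-coding. Promoter windows (250 bases before to 50 bases after each RefSeq gene start) were at hand for 7 of the 10 genes: Irgm1, Irgm2, Igtp, Gbp2, Gbp3, Gbp5 and Gbp7. These sequences are shown because they hold the elements through which interferon signalling is known to act on this family. Both the sequences and the gene types are those of GRCm38.p6, and were not checked in Balb/cJ, the strain of these mice. The ISRE was searched as GAAA, any 2 bases and GAAA, and the GAS as TTC, any 3 bases and GAA, on both strands. The 250 bases ahead of the gene start follow for the 4 genes that also have a cluster of their own, taken from RefSeq, GRCm38.p6, and read 5′ to 3′ in the direction of transcription. They lie at chr11:48871421-48871670 on the minus strand for Irgm1, and on the plus strand at chr3:142559794-142560043 for Gbp3, chr3:142496684-142496933 for Gbp5 and chr3:142530086-142530335 for Gbp7. Capitals mark the ISRE letters (in Gbp3, Gbp5 and Gbp7 on the opposite strand, where they begin with TTTC) and the GAS letters (runs beginning with TTC and ending with GAA).
Irgm1: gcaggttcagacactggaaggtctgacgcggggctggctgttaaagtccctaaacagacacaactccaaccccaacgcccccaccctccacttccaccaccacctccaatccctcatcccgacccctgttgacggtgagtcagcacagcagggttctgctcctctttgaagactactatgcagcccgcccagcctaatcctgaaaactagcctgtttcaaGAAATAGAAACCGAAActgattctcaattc
Gbp3: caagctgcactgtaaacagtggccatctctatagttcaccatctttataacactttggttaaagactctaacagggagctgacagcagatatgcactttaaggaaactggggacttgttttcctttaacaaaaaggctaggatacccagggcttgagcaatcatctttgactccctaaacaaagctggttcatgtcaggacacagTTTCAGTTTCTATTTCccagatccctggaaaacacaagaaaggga
Gbp5: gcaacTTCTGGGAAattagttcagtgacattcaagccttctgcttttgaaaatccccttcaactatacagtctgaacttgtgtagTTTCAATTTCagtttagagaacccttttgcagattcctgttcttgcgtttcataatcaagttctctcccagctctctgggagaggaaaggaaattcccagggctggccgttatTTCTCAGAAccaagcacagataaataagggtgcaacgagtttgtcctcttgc
Gbp7: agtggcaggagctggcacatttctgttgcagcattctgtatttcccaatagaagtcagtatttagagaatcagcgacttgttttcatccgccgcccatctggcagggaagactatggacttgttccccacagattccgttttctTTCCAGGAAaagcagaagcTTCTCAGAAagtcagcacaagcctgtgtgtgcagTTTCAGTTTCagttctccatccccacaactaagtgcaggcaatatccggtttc
For the genes read only through shared clusters, the short stretch around the motif is enough to show it. The stretches lie on the plus strand at chr11:58214902-58214932 (Irgm2), chr11:58199511-58199541 (Igtp) and chr3:142620594-142620623 (Gbp2).
Irgm2: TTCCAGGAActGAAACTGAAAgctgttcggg
Igtp: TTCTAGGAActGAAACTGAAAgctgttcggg
Gbp2: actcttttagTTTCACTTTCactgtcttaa

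All 7 genes with a window held ISRE letters, against 3.44% of the 32851 promoter windows of the same length in the RefSeq table (3.99% of the 27025 genes with a window). Irgm1 had them at bases -30 to -21 and again at -24 to -15, so that the pair overlapped, and Gbp3 had an overlapping pair at -45 to -36 and -39 to -30. A further Gbp3 window, for another start, held neither motif. In Igtp (-34 to -25), Gbp7 (-53 to -44), Gbp2 (-59 to -50) and Irgm2 (-64 to -55) the letters lay near the start as well, and in Gbp5 they lay farther away, at -165 to -156. GAS letters were found in 4 of the 7 genes, Irgm2, Igtp, Gbp5 and Gbp7, against 8.3% of all windows (9.55% of genes with a window). Gbp5 and Gbp7 held a pair of matches each. Of all windows, 0.454% held both motifs. The windows of Irgm2 and Igtp shared an identical run of 61 bases, while no other pair of these genes shared more than 13. Among the other gene groups examined, ISRE letters occurred in 5 of 8 further interferon-induced GTPases, 10 of 16 type I interferon targets, 2 of 11 interferon gamma targets and 0 of 11 related GTPases that interferon is not known to induce. GAS letters occurred in 3 of 8, 3 of 16, 3 of 11 and 0 of 11 of these groups, in the same order. A match describes the letters only and shows neither a bound site nor a cause.

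**Figure D1:**
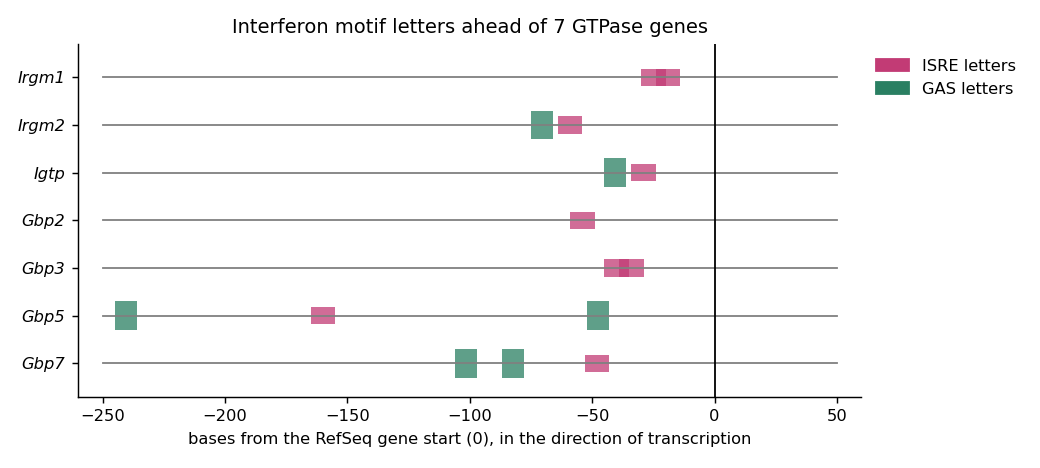
Position of the ISRE letters (pink) and GAS letters (green) in the promoter windows of 7 interferon-induced GTPase genes, in bases from the RefSeq gene start, with the direction of transcription to the right. Each gene has ISRE letters ahead of its start, within 64 bases of it except in Gbp5 (-165 to -156), and Irgm2, Igtp, Gbp5 and Gbp7 also have GAS letters.

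The array values are log2 expression values as the authors deposited them, so that a difference of 1 is a doubling. They hold no measure of detection, so a gene's height above background is unknown. For orientation, a mean under 5.63, the 25th percentile of the mean over the 16 arrays among all genes, is called dim below, and folds that start from a dim level are uncertain in size. The tissues carried their own markers. Control NSR had a median of 12.15 over 7 rod genes, against 7.93 in control RPE, and control RPE had a median of 12.47 over 9 RPE genes, against 5.71 in control NSR. By marker lists of neighbouring tissues 3 RPE arrays stood apart from the others of their group. Replicate 2 of control RPE did so in lens genes and replicate 2 of light-exposed RPE in corneal and ciliary genes. Replicate 1 of light-exposed RPE did so in rod genes, with a median of 8.40. Results on the RPE were therefore also computed without these 3 arrays. In control RPE, replicates 1 and 2 had rod medians nearly as high, 8.32 and 8.17, and those fits kept replicate 1.

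After bright light 5 of the 6 measured GTPases rose in the NSR, the same 5 rose in the RPE, and 0 fell in either tissue. Genes were called at an adjusted p under 0.05 in a limma fit with Benjamini-Hochberg adjustment over all 19938 genes. In the NSR 15.1% of all genes were called, 8.87% as higher and 6.24% as lower after light, and in the RPE 17.6%, 9.08% as higher and 8.53% as lower. Genes with every exposed array above every control array made up 10.7% in the NSR and 11.3% in the RPE. The median log2 change over the 6 genes was 2.53 in the NSR and 0.82 in the RPE, against -0.02 and -0.01 over all genes. The sixth, Mx1, was not called in either tissue. Because whole tissue was measured, more cells that hold a transcript and more transcript per cell cannot be told apart.

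Irgm1, a regulator that keeps the effector immunity-related GTPases off the cell's own membranes and has a part in autophagy, had the largest light response of the 6 in the NSR. Its 4 control NSR arrays read 5.56, 5.35, 4.999 and 4.98, and its 4 light-exposed NSR arrays read 8.63, 8.79, 8.76 and 8.81. The groups lay far apart, with the control level dim and the exposed arrays close together. The rise was 3.52 ± 0.12 (SE) on the log2 scale, an 11.5-fold difference (adjusted p = 5.28e-09). In the RPE the control arrays read 6.81, 7.39, 7.11 and 7.23 and the light-exposed arrays 8.24, 8.20, 8.22 and 8.30. These groups did not overlap either, and the control level was already well above that of the control NSR. The rise in the RPE was 1.11 ± 0.11, or 2.15-fold (adjusted p = 0.000126). Irgm1 thus stood in the order control NSR, control RPE, light-exposed RPE and light-exposed NSR, and each step of that order passed its test.

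Gbp3, a guanylate-binding protein of the chromosome 3 group, rose in both tissues and was far higher in the RPE than in the NSR of control mice. Control NSR arrays read 5.21, 5.33, 5.19 and 4.99, and light-exposed NSR arrays 7.78, 7.79, 8.15 and 7.67. The groups did not overlap, and the control NSR level was dim. The rise was 2.66 ± 0.11, or 6.34-fold (adjusted p = 1.5e-08). Control RPE arrays read 7.99, 8.10, 8.00 and 8.05, inside the range of the light-exposed NSR, and light-exposed RPE arrays read 9.98, 9.84, 9.77 and 10.00. The exposed RPE stood above all other groups, with a rise of 1.86 ± 0.07, or 3.64-fold (adjusted p = 3.86e-07). The means of light-exposed NSR (7.85 ± 0.21, SD) and control RPE (8.03 ± 0.05) were neighbours in the order of levels. They differed by less than the SD of the exposed NSR but by more than that of control RPE, and no fit compared them.

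Gbp5, which promotes inflammasome assembly, was the only measured GTPase with a larger response in the RPE than in the NSR. It was dim in both control groups, at 4.71, 4.65, 4.80 and 4.40 in the NSR and 4.63, 4.73, 4.60 and 4.69 in the RPE, and these groups overlapped. After light the NSR arrays read 6.41, 6.07, 6.11 and 6.25, and the RPE arrays read 6.995, 7.49, 6.93 and 6.93. Every exposed array was above every control array, and every exposed RPE array was above every exposed NSR array. The rise was 1.57 ± 0.10, or 2.97-fold, in the NSR (adjusted p = 6.2e-07) and 2.42 ± 0.12, or 5.37-fold, in the RPE (adjusted p = 2.61e-06). The highest RPE value, 7.49, came from the array with the high corneal and ciliary genes, and without it the RPE rise was 2.29 (adjusted p = 5.38e-07).

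Gbp7, a guanylate-binding protein of the same chromosome, rose strongly in the NSR and little in the RPE. Control NSR arrays read 6.06, 6.43, 6.25 and 6.16 and light-exposed NSR arrays 8.39, 8.55, 9.03 and 8.49. No array of the exposed group came near the controls, and the rise was 2.39 ± 0.13, or 5.24-fold (adjusted p = 1.66e-07). In the RPE the control arrays read 8.45, 8.53, 8.22 and 8.46 and the exposed arrays 8.85, 8.65, 8.74 and 8.86. These groups lay close together without overlap, and the rise was 0.36 ± 0.08, or 1.28-fold (adjusted p = 0.0135). Without the 3 RPE arrays named above the rise was 0.42 and did not pass the test (adjusted p = 0.0555). Light-exposed NSR, control RPE and light-exposed RPE were thus neighbours in level: exposed NSR overlapped both RPE groups, and only control NSR stood apart.

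**Figure D2:**
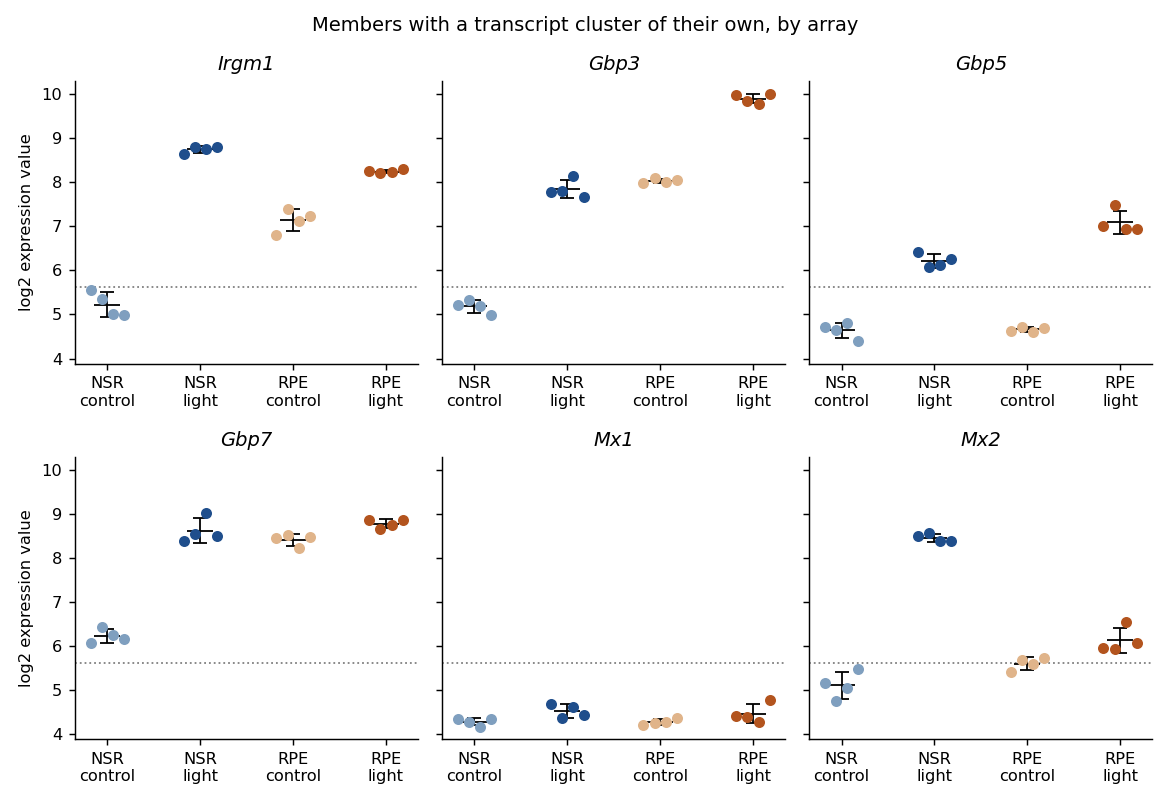
Log2 expression value of the 6 GTPases with a transcript cluster of their own on each of the 16 arrays, with the group mean and SD as bars (n = 4 mice a group) and the dim level of 5.63 as a dotted line. Light-exposed NSR stands above control NSR for Irgm1, Gbp3, Gbp5, Gbp7 and Mx2, control RPE stands above control NSR for Irgm1, Gbp3 and Gbp7 and, with overlap, for Mx2, and Mx1 stays below the dotted line in all groups.

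Mx2, the other dynamin-like GTPase beside Mx1, rose almost as far as Irgm1 in the NSR and only slightly in the RPE. Control NSR arrays read 5.16, 4.75, 5.04 and 5.48 and light-exposed NSR arrays 8.50, 8.57, 8.38 and 8.39. The groups were well separated, from a dim control level, and the rise was 3.35 ± 0.13, or 10.2-fold (adjusted p = 9.66e-09). In the RPE the control arrays read 5.41, 5.69, 5.59 and 5.73 and the exposed arrays 5.95, 5.93, 6.55 and 6.08. The control level was dim here too, the exposed arrays were all above the controls, replicate 3 most of all, and the rise was 0.53 ± 0.14, or 1.44-fold (adjusted p = 0.0235). Without replicate 1 of control RPE the adjusted p was 0.0688, and without replicate 3 of control RPE it was 0.0566, with rises of 0.46 and 0.52. Mx2 thus stood in the order control NSR, control RPE, light-exposed RPE and light-exposed NSR, with the lower 3 groups close together.

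Mx1 was dim in every group. It read 4.34, 4.28, 4.17 and 4.34 in control NSR and 4.70, 4.36, 4.61 and 4.43 in light-exposed NSR, which did not overlap though the gap was narrow. Since 10.7% of all genes showed such a gap in the NSR, this alone sets Mx1 little apart. The difference of 0.24 ± 0.08 did not pass the test (adjusted p = 0.078), but did under 3 other scalings of the arrays (adjusted p = 0.0357 to 0.0461) and without replicate 2 of light-exposed NSR (adjusted p = 0.0457). In the RPE it read 4.21, 4.25, 4.27 and 4.37 in controls and 4.42, 4.39, 4.28 and 4.77 after light, with overlap (0.19 ± 0.10, adjusted p = 0.262). Since its height above background is unknown, these values place no bound on a change.

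The 3 shared clusters that hold a member all rose in the NSR, and in the RPE all but that of Irgm2 with Igtp did. They were tested in a fit to which all clusters of several symbols had been added after the data were seen. Other shared clusters of the family moved in different directions and are given under other observations. The cluster of Irgm2, a relative of Irgm1, and Igtp, which is also called Irgm3, read 5.93, 6.13, 5.93 and 6.17 in control NSR and 9.25, 9.42, 9.33 and 9.29 after light. That rise of 3.28, or 9.73-fold (adjusted p = 8.09e-09), was close in size to those of Irgm1 and Mx2. In the RPE the cluster read 7.15, 7.47, 7.30 and 6.80 in controls and 7.64, 7.38, 7.47 and 7.43 after light. These groups overlapped, and the change of 0.30 did not pass the test (adjusted p = 0.172).

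The cluster of Gbp2, a guanylate-binding protein that reaches parasite vacuoles, with Gbp2b read 5.69, 5.70, 5.53 and 5.55 in control NSR and 7.44, 7.47, 7.58 and 7.49 after light, a rise of 3.67-fold (adjusted p = 7.04e-08). In the RPE it read 5.57, 5.87, 5.98 and 5.20 in controls and 6.81, 7.18, 6.84 and 6.54 after light, a rise of 2.28-fold (adjusted p = 0.00194). Neither pair of groups overlapped. The cluster that lists Gbp6 beside Gbp4, Gbp8, Gbp9, Gbp10 and Gbp11 read 6.61, 6.72, 6.33 and 6.22 in control NSR and 8.43, 8.51, 8.96 and 8.49 after light, a rise of 4.37-fold (adjusted p = 4.46e-06). Its RPE values were 7.47, 7.58, 7.37 and 7.33 in controls and 8.32, 8.43, 8.48 and 8.24 after light, a rise of 1.90-fold (adjusted p = 9.77e-05). All exposed arrays of this cluster, too, stood above all controls of the same tissue.

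The response to light differed between the tissues for 5 of the 6 measured GTPases, 4 with a smaller rise in the RPE and Gbp5 with a larger one. The test was the interaction term of a fit of all 16 arrays, in which 13.2% of all genes were called, 8.05% with a lower and 5.16% with a higher response in the RPE. The gap was widest for Mx2, whose log2 response in the RPE less that in the NSR was -2.82 ± 0.20 (SE), so that its light-to-control ratio was 7.08 times as large in the NSR (adjusted p = 7.15e-08). For Irgm1 the ratio was 5.34 times as large in the NSR (adjusted p = 7.77e-08), for Gbp7 4.09 times (adjusted p = 2.83e-07) and for Gbp3 1.74 times (adjusted p = 0.000468). Gbp5 went the other way, with a ratio 1.81 times as large in the RPE (adjusted p = 0.0016). Among the shared clusters the ratio of Irgm2 with Igtp was 7.91 times as large in the NSR (adjusted p = 1.14e-08), that of the Gbp6 cluster 2.30 times (adjusted p = 0.000166) and that of Gbp2 with Gbp2b 1.61 times (adjusted p = 0.0351). The 2 tests of light and this test use the same arrays, and so are not separate evidence.

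**Figure D3:**
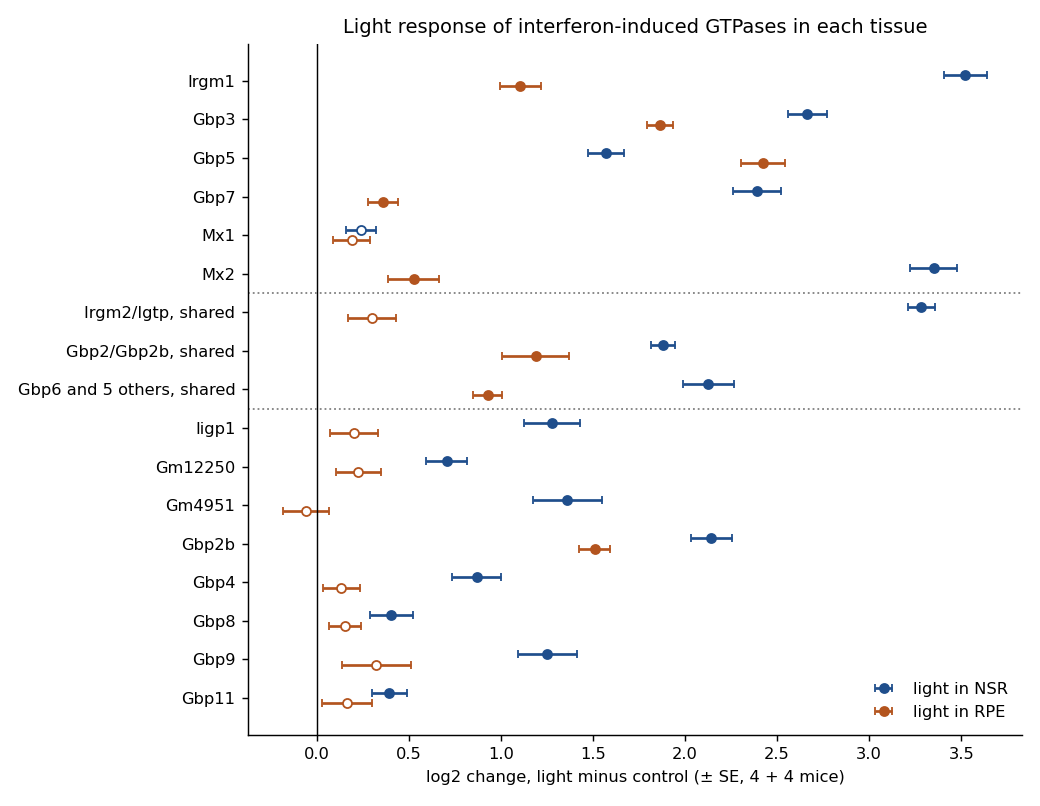
Log2 change from control to light-exposed mice in the NSR (blue) and the RPE (orange) with its SE, for the 6 measured GTPases, the 3 shared clusters and 8 further interferon-induced GTPases (4 and 4 mice). Filled points passed the test at an adjusted p under 0.05. Gbp5 is the only gene whose RPE point lies to the right of its NSR point.

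Levels in control mice were higher in the RPE for 4 of the 6 genes. Among all genes 55.0% were called between control RPE and control NSR, 30.8% as higher and 24.2% as lower in the RPE, so that a tissue difference by itself is common. Gbp3 was 7.21-fold (adjusted p = 2.75e-14), Gbp7 4.57-fold (adjusted p = 1.67e-11) and Irgm1 3.76-fold (adjusted p = 2.2e-10) higher in control RPE. Mx2 was 1.41-fold higher (adjusted p = 0.00634), with arrays of the 2 groups overlapping, and Gbp5 (0.02 ± 0.12 on the log2 scale, adjusted p = 0.883) and Mx1 (-0.01 ± 0.10, adjusted p = 0.943) were not called. In light-exposed mice, where 58.0% of all genes were called, 34.4% as higher and 23.6% as lower in the RPE, the order had partly turned. Gbp3 (4.14-fold, adjusted p = 2.85e-12) and Gbp5 (1.84-fold, adjusted p = 3.24e-06) were higher in exposed RPE, while Mx2 (5.03-fold, adjusted p = 1.2e-10) and Irgm1 (1.42-fold, adjusted p = 0.00178) were higher in exposed NSR. For Gbp7 the exposed tissues differed by 0.16 ± 0.12 (adjusted p = 0.258), which passed the test when arrays were centred on their medians (adjusted p = 0.0395) or without replicate 3 of light-exposed NSR (adjusted p = 0.0123). Centring moved the median tissue difference over all genes from 0.04 to 0.19 in controls and from 0.08 to 0.20 after light, and the genes called higher from 6140 of 10961 to 9625 of 13325 in controls (8728 of 13146 with quantile normalization) and from 6863 of 11573 to 10259 of 14063 after light. These scalings reversed no called tissue difference of these genes.

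Of 17 further interferon-induced GTPases, 8 had a cluster of their own, and all 8 rose in the NSR while 1 rose in the RPE. Gbp2b, the guanylate-binding protein next to Gbp2, was 4.42-fold higher after light in the NSR (adjusted p = 1.41e-07) and 2.84-fold higher in the RPE (adjusted p = 5.64e-06). Gm4951, an immunity-related GTPase gene, rose 2.57-fold in the NSR (adjusted p = 0.000344) and changed by -0.06 in the RPE (adjusted p = 0.827). The median log2 change of the 8 was 1.06 in the NSR and 0.18 in the RPE. Gbp8, at 0.40, lost its call in 6 of the fits that left out 1 array. A filter that removed the dimmest 25% of genes kept 5 of the 8, and all 5 rose. Their response was smaller in the RPE than in the NSR for 5 of 8 and larger for 0 of 8, 3 of 5 with that filter. Of those 5 of 8, Gbp9 lost this call in several fits that left out 1 array (adjusted p = 0.0508 to 0.0617). Gbp4 lost it without the 3 RPE arrays (adjusted p = 0.0534). Another list held 11 related GTPases that interferon is not known to induce, such as dynamins, mitofusins and atlastins. Of these, Atl1 alone rose in the NSR (1.25-fold, adjusted p = 0.0111). In the RPE Opa1 rose 1.14-fold (adjusted p = 0.0431) and Atl3 fell 1.34-fold (adjusted p = 0.00654). Such counts lie near the shares of all genes called higher in the NSR (8.87%) and higher (9.08%) or lower (8.53%) in the RPE. Atl1 was not called in a fit of all 16 arrays (adjusted p = 0.174), nor Opa1 without the 3 RPE arrays (adjusted p = 0.276) or in any of the 8 fits that left out 1 RPE array (adjusted p = 0.0546 to 0.108).

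Transcripts of the interferons themselves did not pass the test. Of 12 measured interferon ligand genes limma called 0 in either tissue, and at an unadjusted p under 0.05 there were 2, both lower, in the NSR and 0 in the RPE. Leaving out replicate 4 of control NSR or replicate 3 of control RPE gave 1 call each, lower after light. Of the 12 genes, 7 were dim in every group and 5 in none (Ifna2, Ifna5, Ifna14, Ifng and Ifnl2). Of 9 receptor and kinase genes, 4 rose in each tissue, led by Ifnar2, a chain of the type I receptor (2.42-fold in the NSR, adjusted p = 3.25e-07), and Il10rb, a chain of the type III receptor (1.66-fold in the NSR, adjusted p = 0.000358, and 1.82-fold in the RPE, adjusted p = 0.0101). Ifngr2, a chain of the interferon gamma receptor, rose 1.61-fold in the RPE (adjusted p = 0.00119). Without the 3 RPE arrays 2 of the 4 RPE calls were left.

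Most transcription factors of the interferon pathway rose in the NSR, and 4 of 7 did in the RPE. In the NSR 6 of 7 rose, led by Stat2 (5.26-fold, adjusted p = 3.67e-09) and Irf7 (5.22-fold, adjusted p = 2.38e-08), a factor that amplifies type I interferon responses. Those that rose in the RPE were led by Irf1, a factor of the interferon gamma response (2.05-fold, adjusted p = 0.00125), and Irf7 (1.41-fold, adjusted p = 0.00112). The count in the RPE was 2 of 7 without the 3 RPE arrays, and likewise without replicate 1 of control RPE or replicate 1 of light-exposed RPE. The response was smaller in the RPE for 5 of the 7. Among 7 inhibitors that limit interferon signalling, 4 rose and 1 fell in the NSR, with Usp18, which acts at the type I receptor, 4.12-fold higher (adjusted p = 9.66e-09) and Cish, a SOCS-family protein, 1.52-fold higher (adjusted p = 0.00179). In the RPE 1 rose, Ptpn2, a phosphatase that acts on Janus kinases and STATs, by 4.75-fold (adjusted p = 2.45e-06). That RPE count was 2 or 3 under 7 of the alternatives.

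Most type I interferon targets rose in the NSR, and fewer did in the RPE. In the NSR 14 of 18 rose, with a median change of 1.41, led by Rtp4, a receptor transport protein (8.25-fold, adjusted p = 6.44e-09), and Ddx58, the RNA sensor RIG-I (7.71-fold, adjusted p = 1.62e-08). In the RPE 6 of 18 rose, with a median of 0.23, led by Ifit1, which binds viral RNA (2.21-fold, adjusted p = 0.00276), and Rtp4 (1.78-fold, adjusted p = 0.00321). The response was smaller in the RPE for 10 of 18 and larger for 0. Of 15 interferon gamma targets, 6 rose in the NSR, with a median of 0.02, led by the immunoproteasome genes Psmb9 (5.21-fold, adjusted p = 1.73e-08) and Psmb8 (3.86-fold, adjusted p = 3.24e-06). In the RPE 6 rose and 2 fell, with a median of 0.04, led by Cxcl10, a chemokine (2.87-fold, adjusted p = 0.000826), and Psmb8 (2.60-fold, adjusted p = 6.25e-05). For 3 of the 15 the response was smaller in the RPE, 5 without replicate 4 of light-exposed NSR. Type I interferon also induces many genes of the gamma list, and no test compared the lists.

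Genes that work with the GTPases were read in 3 lists. Of 13 genes that help bring them to vacuoles, 5 rose in the NSR and 3 in the RPE. Trim21, a ubiquitin ligase, rose 3.73-fold in the NSR (adjusted p = 1.8e-08) and 1.52-fold in the RPE (adjusted p = 0.000143). Rnf213, another large ubiquitin ligase, rose 1.77-fold in the NSR (adjusted p = 3.12e-06), and Map1lc3a, an autophagy protein, rose 1.42-fold in the RPE (adjusted p = 0.00246). With an intensity trend in the fit, 4 rose and 1 fell in the RPE. Of 8 inflammasome genes linked to guanylate-binding proteins, 3 rose in the NSR, among them Il1b (1.92-fold, adjusted p = 0.000664) and Casp1 (1.71-fold, adjusted p = 0.00123), and 1 of 5 did with the dimmest genes removed. In the RPE Il18 fell 1.69-fold (adjusted p = 0.000159), and 1 or 2 other genes rose in 12 of the alternatives. Of 7 enzymes that add lipid anchors, which several of these GTPases carry, limma called 0 in the NSR (2 at an unadjusted p under 0.05, both higher), and in the RPE Nmt1 rose 1.30-fold (adjusted p = 0.00374) and Nmt2 fell 1.80-fold (adjusted p = 0.000405).

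**Figure D4:**
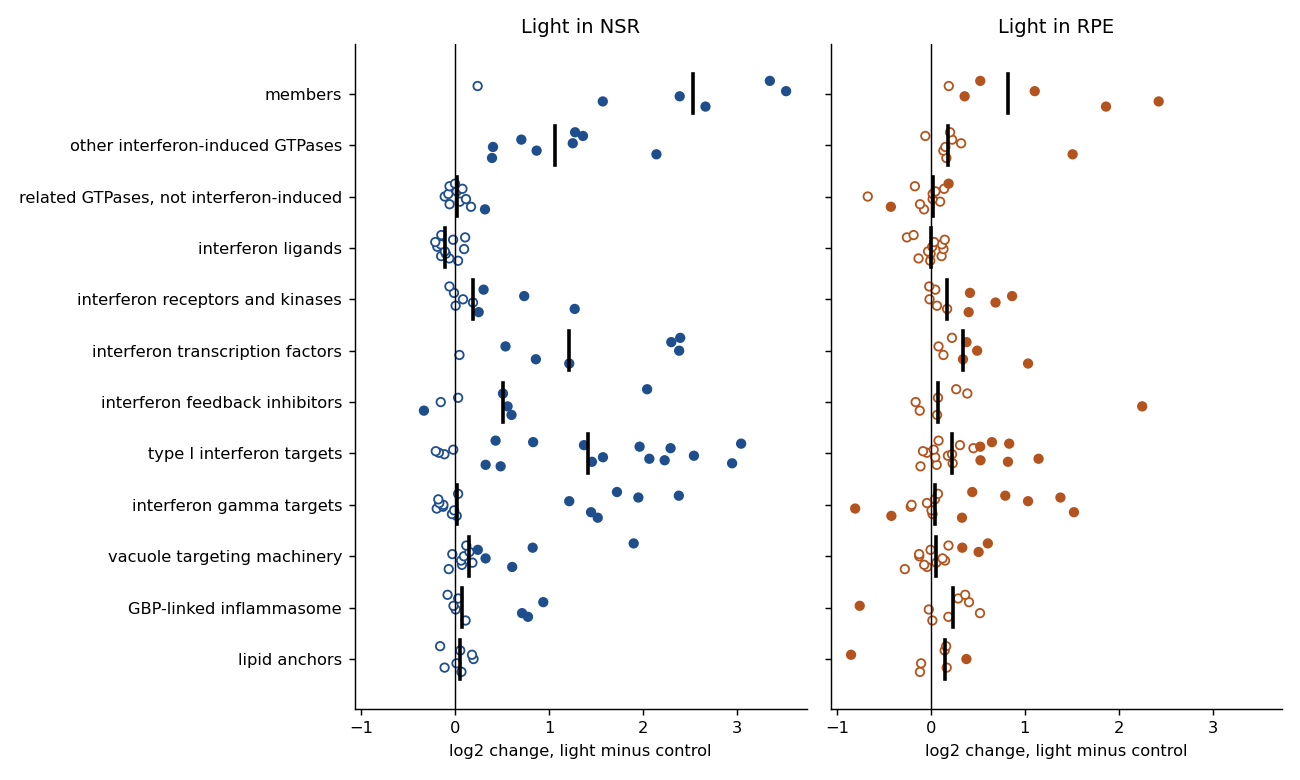
Log2 change from control to light in the NSR (left) and the RPE (right) for the measured genes of each list, with 1 point a gene, filled where the gene passed the test at an adjusted p under 0.05, and a black bar at the list's median. The GTPases had a median of 2.53 in the NSR and 0.82 in the RPE, type I interferon targets 1.41 and 0.23, and interferon ligands stayed near 0 in both.

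Markers of cells that could carry these transcripts were read beside them. The median of 10 microglia and macrophage genes lay between 5.97 and 6.01 on the control NSR arrays and between 5.96 and 6.17 after light, and between 6.95 and 7.44 in control RPE and 7.01 and 7.28 in exposed RPE. This median thus moved little with light and was higher in the RPE in both groups. Of the 10 genes, 3 rose in the NSR and 2 rose and 1 fell in the RPE. Cd68, a lysosomal gene of macrophages that other cells also express, rose 3.48-fold in the NSR (adjusted p = 5.28e-06) and 6.78-fold in the RPE (adjusted p = 3.49e-05). Csf1r, the receptor that defines the lineage, was not called in the NSR (adjusted p = 0.83) and fell by 1.14 on the log2 scale in the RPE (adjusted p = 0.00025).

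Genes of T cells and natural killer cells, the main sources of interferon gamma, were dim. Their median over 10 genes was 4.73 in control NSR, 4.63 after light, 4.88 in control RPE and 4.85 after light, and limma called 0 of them by light in either tissue (1 in the NSR, lower, and 0 in the RPE at an unadjusted p under 0.05). Of 7 neutrophil and monocyte genes 3 rose in the RPE and 0 in the NSR, where 0 also had an unadjusted p under 0.05. All 7 rod genes fell in the NSR, from a median of 12.15 to 11.64. Of 7 cone genes 5 fell and 1 rose in the NSR, with a median log2 change of -1.12, and 2 fell and 1 rose in the RPE. Of 7 Müller glia genes 4 fell and 1 rose in the NSR, and 1 fell and 2 rose in the RPE. Of 9 RPE genes, among them Rlbp1, which is also in the Müller glia list, 4 fell in each tissue. Fibroblast and pericyte genes were higher in control RPE than in control NSR for 6 of 7. Of 3 astrocyte genes 1 rose in the NSR and 0 in the RPE, and of 8 endothelial genes 0 rose in the NSR and 1 in the RPE. The 2 measured genes of plasmacytoid dendritic cells fell in the NSR and were not called in the RPE. The part of these cell types in the GTPase values was not tested.

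By likeness over the 16 arrays, each gene taken less its own mean, the genes closest to the median of the 6 GTPases were Trim21, Ifitm3, a membrane protein that blocks virus entry, Ifih1, the RNA sensor MDA5, Vim, the intermediate filament vimentin, and Stat3. Their root mean square differences were 0.203, 0.218, 0.222, 0.236 and 0.260 on the log2 scale. Trim21 averaged 6.58 in control NSR, 8.48 in exposed NSR, 8.16 in control RPE and 8.76 in exposed RPE. Closest to Irgm1 were Rtp4 (0.300), Ifitm3 (0.409), Cebpd, a stress-responsive transcription factor (0.410), Ddx58 (0.484) and Parp9 (0.492). Closest to Mx2 were Egr2 and Lif (0.364 and 0.396), an early-response transcription factor and a cytokine of Müller glia, then Irf7 (0.413), Stat2 (0.436) and Myc (0.464). The other members were farther off: Gbp7, the member nearest to Irgm1, differed from it by 0.577. Irgm1, the member nearest to Mx2, differed from Mx2 by 0.877, and Gbp3, the farthest, by 1.79. These values are a ranking over arrays that share 4 groups, and carry no test.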

How the data were processed

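RNA of the NSR and isolated RPE of 8 mice was measured on 16 one-colour Affymetrix arrays. The authors deposited log2 values of 35556 transcript clusters. Per the submitters' processing notes they come from RMA and Partek 6.6, and the log2 scale was read from their range (up to 13.84). Annotation version and filters: not given in the sources used here. Array medians lay between 6.38 and 6.57. Precision is limited by the number of arrays. Of the clusters, 21789 had 1 symbol, 1621 several and 12146 none, and the brightest single-symbol cluster by mean stood for each of 19938 genes. Coordinates are those of the promoter table only, since the array's build is not named.

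Light was tested within each tissue (8 arrays). The tissues and the difference of responses were tested over the 16 arrays, with a mean for each of the 4 groups. Fits used limma 3.58.1 (lmFit, eBayes) in R 4.3.3, checked on simulated data. Python 3.11.15, pandas 2.3.3 and matplotlib 3.10.9 served for counts, motifs and plots. The members and lists were chosen with earlier results of these data known. Named were all members, from each list up to 2 called genes a tissue with the largest change, the 5 genes most like the members' median, Irgm1 and Mx2, and defining markers. Those beyond this rule were chosen after their values were seen. Clusters with several symbols entered an added fit only.

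The mouse identifier in the labels pairs the NSR and RPE samples of an animal. Deviations from group means correlated between -0.011 and 0.053 over the 8 pairs. Alternatives were other scalings, array weights, other variance priors, other handling of clusters, removal of the dimmest 25% of genes, the mouse or replicate number as a block, and arrays left out.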

Additional observations from a re-analysis of the deposited data

Results flagged for a closer look

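In 24 groups of 4 arrays (6 GTPases in 4 groups), 1 had an array far from the others. This was Gbp5 in light-exposed RPE, where replicate 2 read 7.49 and the others 6.93 to 6.995. The gap was 0.886 of the group's range, above Dixon's 95% critical value for 4 samples, and chance gives about 1 such group in 20. Replicate 2 of light-exposed RPE was also the array with high corneal and ciliary genes, at a median of 9.98 against 6.25 to 6.42 in the other arrays of its group. Without it the rise of Gbp5 in the RPE was 2.29 in place of 2.42.

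The light response differed between the tissues, by the interaction term over all 16 arrays, for Irgm1 (-2.42, RPE minus NSR, on the log2 scale), Gbp3 (-0.80), Gbp7 (-2.03) and Mx2 (-2.82), which rose less in the RPE. It was larger in the RPE for Gbp5 (0.85). All 5 kept their direction and their call in each of the alternatives run.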

How the results depend on the processing

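There were 29 alternatives, 16 that left out 1 array and 13 others. Each result was computed again under those that concerned its comparison, so that none was run under all of them. The count of called members stayed within 1.5 times its value in all 109 recomputed counts. It ranged from 5 to 6 for light in the NSR, 4 to 5 for light in the RPE, 4 to 5 for the exposed tissues, and was 5 for the difference and 4 for the control tissues throughout. Of 649 recomputed values of members 0 changed sign where the main fit or the alternative called the gene. Small uncalled values did change sign. Between control tissues Gbp5 went from 0.02 to as low as -0.06, and Mx1 from -0.01 to as high as 0.14. Mx1 also changed sign in the difference and between exposed tissues. The 3 values that lost their call were of Gbp7 and Mx2 in the RPE. The 6 that gained one were of Mx1 in the NSR and Gbp7 between exposed tissues. They are given with the results, and the cause was not tested. Of 759 recomputed list counts 49 moved by over 1.5 times. Light and control arrays share only a number across mice (correlation -0.017 to 0.066), and with the replicate block, by number or by mouse, 5, 5, 5, 4 and 4 members were called for light in the NSR and the RPE, the difference, and the control and exposed tissues, as without it. The block ended no call of a member. It ended those of Gbp8 in the NSR (adjusted p = 0.0836), Opa1 in the RPE (adjusted p = 0.11) and the difference of Cish (adjusted p = 0.0956). Dim levels in control NSR (Irgm1, Gbp3, Gbp5 and Mx2) and in control RPE (Gbp5 and Mx2) leave the size of their folds and of their tissue differences uncertain.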

Other observations

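Over the 17 clusters of the family read here (6 members, 8 further GTPases and the 3 shared clusters that hold a member), replicate 3 of light-exposed NSR was the highest array of its group in 12, and replicate 2 of control RPE in 10. In that exposed NSR array the median of 18 type I interferon targets was 7.74, against 7.03 to 7.28 on the other 3. These arrays were singled out after their values were seen. The 17 clusters are not fully separate readings, since Gbp2b, Gbp4, Gbp8, Gbp9 and Gbp11 are also listed in the shared clusters. No such count over all genes is given beside them.

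Other shared clusters of the family moved in different directions. A cluster of Ifi47, an immunity-related GTPase, with the odorant receptor gene Olfr56 was 1.56-fold higher after light in the NSR (adjusted p = 0.00041) and 1.53-fold lower in the RPE (adjusted p = 0.00426). A pair of clusters of Tgtp1 with Tgtp2, T cell GTPases, rose 1.75-fold and 1.53-fold in the NSR (adjusted p = 3.65e-05 and 0.00524) and 1.44-fold and 1.59-fold in the RPE (adjusted p = 0.0343 and 0.00424). A pair of clusters of 9930111J21Rik1 with 9930111J21Rik2 was 1.48-fold and 1.60-fold lower in the RPE (adjusted p = 0.0291 and 0.0012), and not called in the NSR. A cluster of Gvin1, a very large interferon-inducible GTPase, with Gm4070 was 1.27-fold lower after light in the NSR (adjusted p = 0.0466) and not called in the RPE (adjusted p = 0.605), and 2 further Gvin1 clusters were called in neither tissue.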
